A study of Mus musculus with 30 samples.

Results

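Kidneys of calorie-restricted old mice were set against kidneys of young control mice, to describe where the old kidney under the diet still stood apart from the young one. Members were chosen by sample title: 5 old restricted and 5 young control numbers, each measured on 2 array types, which makes 20 of the 30 samples of the series. The series measured total kidney RNA from mice of the inbred strain C57BL/6 on short-oligonucleotide arrays of 1 colour. The restricted group was 30 months old and ate a calorie-restricted diet, and the young group was 5 months old on control feed. A further 10 samples, from 5 numbers of control-fed mice of 30 months (old controls), are used here only for values set beside the comparison. The young and restricted groups differ in both age and diet, so the effects of age and diet cannot be told apart within this comparison alone.

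Calorie restriction is a lowered food intake without malnutrition, and it slows many age-related changes in rodents. Fatty acids are a main fuel of the kidney. The nuclear receptor PPAR alpha, which binds fatty acids, switches on genes that burn them, such as the Cyp4a fatty acid hydroxylases. The ageing kidney is known for infiltrating leukocytes, more extracellular matrix and worn tubules, most of all in the proximal tubule, which reabsorbs most of the filtered salt, sugar and amino acids.

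Values are deposited intensities per probe set. A floor marks background: 1103 on the first array type and 1815 on the second, and values under it carry no order. Differences are log2 differences of floored values with their standard error, restricted minus young unless said otherwise. Of the values on an array, 24% to 37.5% lay above the floor, and across tested probe sets the animals of each group had pairwise r of 0.886 to 0.966. Whether the 5 numbers stand for different mice is not stated in the labels. Each number is termed an animal below, and p-values measure only the spread between these samples, which may be technical. The kidney markers Slc34a1, the phosphate transporter of the proximal tubule, and Umod, made by the thick ascending limb, were above the floor in every animal and differed by -0.07 ± 0.12 and 0.31 ± 0.20 (adjusted p = 0.82 and 0.49). Markers of fat (Adipoq, 0.16), adrenal (Nr5a1, 0.06), blood (Hba-a1, 0.25), skeletal muscle (Ckm, -0.17) and liver (Ttr, -0.50, adjusted p = 0.21) did not pass either. Adipoq and Hba-a1 changed sign between the number sets described below, with -0.22 and 0.88 among animals 1 to 3 and 0.73 and -0.70 among animals 4 and 5. Young animal 5 stood apart for liver transcripts. Alb, serum albumin, read 499, 1256, 1367, 2183 and 22845 in young animals against 1057 to 2327 in restricted ones, and Ahsg, the liver plasma protein fetuin-A, read 2465 in young animal 5 and was under the floor in the other 9 animals. Neither was above the floor on enough arrays to be tested. The other measured genes of the liver list, Apoa1, Hpx and F2, were under the floor in all animals of both groups. In bulk tissue, fewer cells of a type and less RNA per cell cannot be told apart. Animals numbered 1 to 3 and those numbered 4 and 5 stood apart within every group on the first principal component of the deviations from group means (37.3% of the variance). The labels do not say what the numbers mean, so values within both number sets are given beside some of the genes.

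Of 4433 tested probe sets, 169 differed between restricted and young kidneys at an adjusted p under 0.05 in limma (3.81%). Higher in restricted kidneys were 88 (1.99%), and lower were 81 (1.83%). Without young animal 2 the count was 112, without young animal 3 it was 110 and without young animal 5 it was 145, and it was 341 with the number set as a term in the fit. The median difference over all tested probe sets was -0.0062, and over the brightest probe set of each of 2668 named genes it was 0.010. Of these 2668, 54 were higher and 50 lower past the threshold, and the counts by gene list below stand beside that share. Intensities of the 5 restricted and 5 young animals did not overlap for 269 probe sets (6.07%), among them 141 of the 169 that passed. For reference, old controls against young controls gave 3.38% (2.17% higher and 1.22% lower). Restricted against old controls gave 2.53% (0.902% higher and 1.62% lower). These comparisons share animals, so their values are set side by side below and no overlap between them is counted.

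Apoe, the apolipoprotein that carries cholesterol-rich lipoproteins to their receptors, showed the largest rise. Its intensities were 40784, 54230, 49244, 70502 and 62404 in restricted animals 1 to 5, against 291, 2485, 3087, 469 and 14728 in young animals. All restricted animals lay above all young ones, and the young group itself was spread from below the floor to the high value of animal 5. The same young animal was the highest of its group for Alb and for the apolipoproteins Apoa2 (12368, the other young animals 1564 to 4039) and Apoc1 (9450, the others 651 to 2972), and the part of these transcripts in its Apoe value was not tested. The Apoe difference was 4.35 ± 0.76 (adjusted p = 0.0033), and it was 4.96 without young animal 5. Old controls read 5755, 1312, 3503, 22339 and 24105, overlapping the young ones but not the restricted ones. They differed from young by 1.34 (adjusted p = 0.43), and restricted animals differed from them by 3.0 (adjusted p = 0.045). A second Apoe probe set on the other array type gave 4.32 ± 0.61 (adjusted p = 0.00065), and 4.91 without young animal 5. On it old controls stood at 2.17 from young (adjusted p = 0.065) and restricted animals at 2.16 from old controls, which did not pass (adjusted p = 0.080). Of 11 measured genes of apolipoproteins and lipoprotein handling, Apoe and Angptl4 rose, Lpl fell and 8 did not pass, with a median of 0.06.

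**Figure D1:**
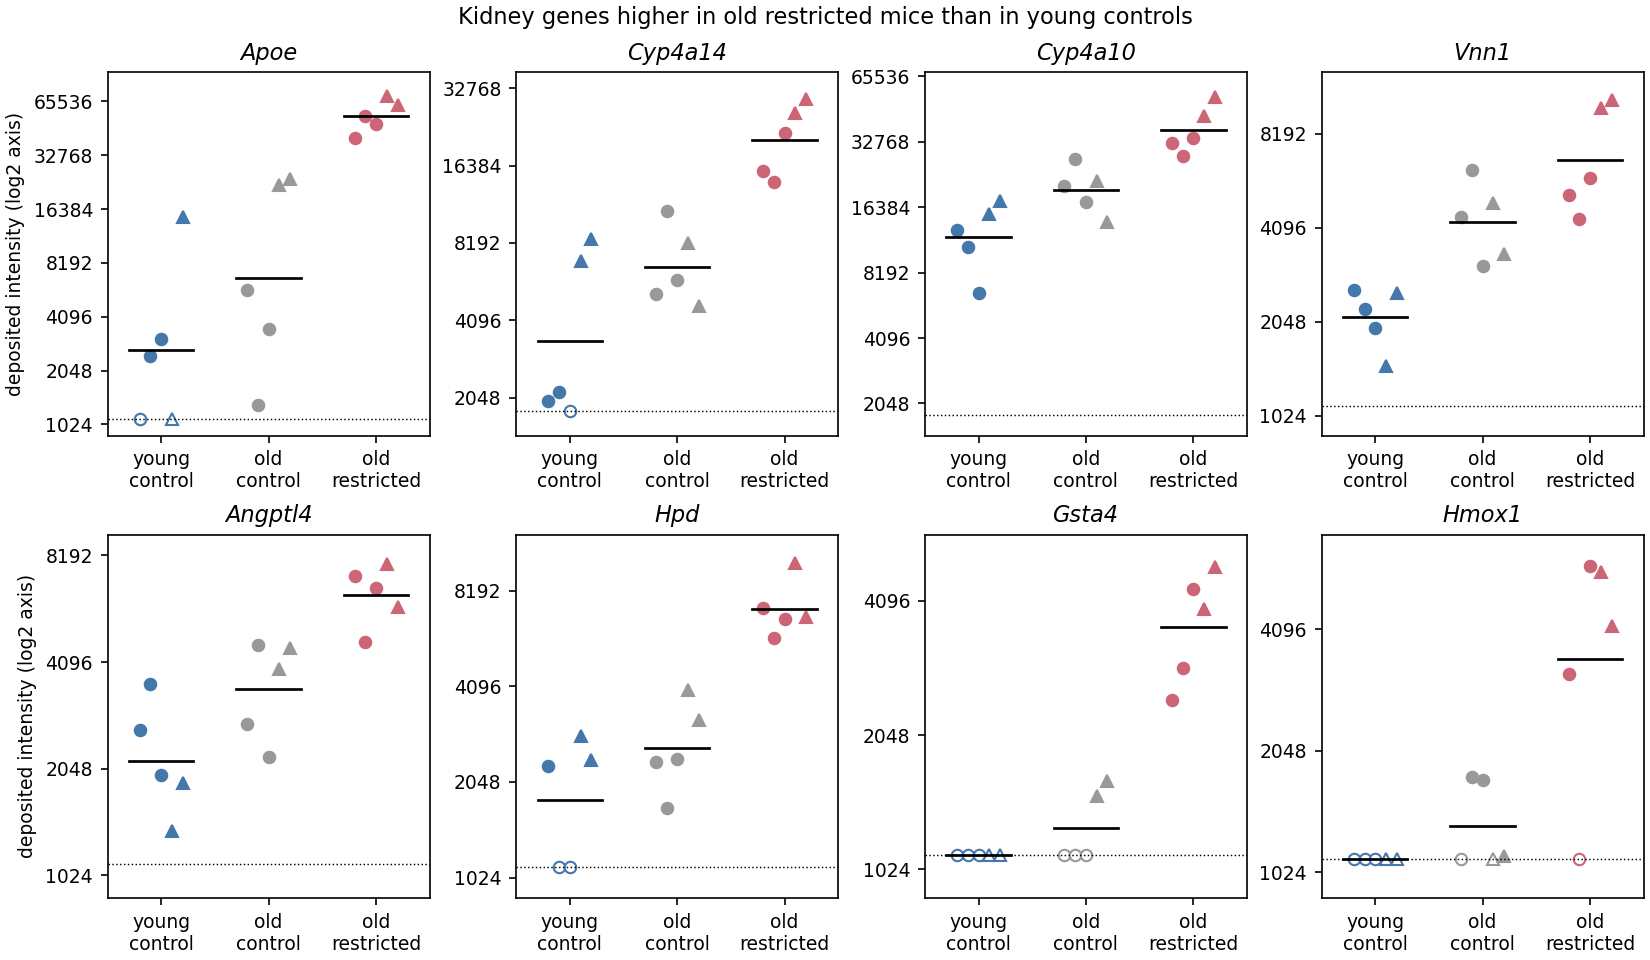
Deposited intensity by animal (y axis, log2 scale) for 8 genes that rose, in young controls, old controls and old restricted mice (x axis). Circles are animals 1 to 3, triangles animals 4 and 5, bars the mean on the log2 scale, dotted lines the floor, and open symbols values under it drawn at the floor; Gsta4 is under the floor in all 5 young animals and above it in all 5 restricted ones.

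Among 25 measured genes of fatty acid oxidation and PPAR alpha response, 5 were higher in restricted than in young kidneys, 1 was lower and 19 did not pass, with a median of 0.21. The 5 were Cyp4a14, Vnn1, Cyp4a10, Angptl4 and Acaa2, and the first 4 are well-known PPAR alpha targets. Cyp4a14, a fatty acid omega-hydroxylase, read 15565, 14095, 21865, 26252 and 29878 in restricted animals and 1991, 2153, 1421, 6948 and 8504 in young ones. The groups did not overlap, and young animals 4 and 5 were the higher ones of their group. Its difference was 2.60 ± 0.41 (adjusted p = 0.0017), with 3.09 among animals 1 to 3 and 1.86 among animals 4 and 5. Old controls differed from young by 0.96 (adjusted p = 0.28), and restricted animals from old controls by 1.64 (adjusted p = 0.045).

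Vnn1, a pantetheinase that recycles vitamin B5, read 5202, 4377, 5909, 9886 and 10488 in restricted animals against 2592, 2248, 1950, 1476 and 2524 in young ones. No values overlapped, and restricted animals 4 and 5 were the highest. It rose by 1.67 ± 0.26 (adjusted p = 0.0015), with 1.19 among animals 1 to 3 and 2.40 among animals 4 and 5. For Vnn1 old controls stood at 1.02 from young, and restricted animals at 0.65 from old controls. Angptl4, a fasting-induced inhibitor of lipoprotein lipase, rose by 1.55 ± 0.26 (adjusted p = 0.0023), from 1366 to 3539 in young animals to 4669 to 7738 in restricted ones. Cyp4a10, a close relative of Cyp4a14, rose by 1.63 ± 0.25 (adjusted p = 0.0014). Old controls stood at 0.68 from young for Angptl4 and at 0.72 for Cyp4a10. A further relative, Cyp4a31, rose by 1.33 ± 0.17 (adjusted p = 0.00049). On that probe set old controls read 5864 to 9488, above all young animals at 3593 to 4921. Its other probe set read 1.01 and did not pass (adjusted p = 0.060). The Cyp4a genes are alike in sequence, so their probe sets may share signal. Acaa2, a mitochondrial thiolase of fatty acid oxidation, rose by 0.80 ± 0.18, and Plin2, the coat protein of lipid droplets, by 0.90 ± 0.19.

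Most genes of the oxidation steps themselves did not pass. The differences were -0.39 for Acadm, 0.14 for Acadl, 0.21 for Acadvl, 0.25 for Cpt1a, the gatekeeper of mitochondrial fatty acid entry, and 0.37 for Ppara itself. Larger values that did not pass were 0.77 for Hadha, -0.78 for Acat1 and 0.97 for Acot1 (adjusted p = 0.23, 0.094 and 0.069). Acot1 was under the floor in all young animals and read 1177 to 4244 in restricted ones without overlap, so its difference is a lower bound. Amacr, a racemase that prepares branched-chain fatty acids and bile acid intermediates for oxidation, fell. It read 4833, 4835, 3241, 3100 and 3090 in restricted animals and 7337, 9736, 7803, 10181 and 10230 in young ones, with no overlap. Its difference was -1.26 ± 0.17 (adjusted p = 0.00052), and old controls stood at -1.06 from young.

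Genes of fatty acid uptake and binding gave mixed values, and they were not a list of their own. Lpl, the lipase that frees fatty acids from circulating lipoproteins, read 7354, 4861, 5715, 7755 and 9118 in restricted animals and 14862, 13656, 17160, 15196 and 18047 in young ones. The groups were far apart, and Lpl fell by 1.21 ± 0.17 on the log2 scale (adjusted p = 0.00065), with old controls at -0.92 (adjusted p = 0.0040). Cd36, a fatty acid transporter, differed by -0.79 ± 0.18 (adjusted p = 0.018), and a second Cd36 probe set read -0.95 without passing (adjusted p = 0.069). The first Cd36 call was lost without restricted animal 3 or 4 or young animal 2 or 3 (adjusted p up to 0.056). The heart-type fatty acid binding protein Fabp3 differed by -1.03 ± 0.28 (adjusted p = 0.0498), a call that 13 of 26 processing alternatives lost, 8 of them the loss of 1 animal (adjusted p up to 0.11). The fatty acid transporter Slc27a2 read 0.05 and the binding protein Fabp4 read -0.06, and neither passed (adjusted p = 0.94 and 0.96). Coasy, which makes coenzyme A, differed by -1.30 ± 0.23 (adjusted p = 0.0034), from 4850 to 7244 in young animals to 1639 to 3571 in restricted ones.

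Amino acid metabolism moved both ways. Of 24 measured genes, 3 rose, 3 fell and 18 did not pass, with a median of -0.11. Hpd, which breaks down the tyrosine product 4-hydroxyphenylpyruvate, read 7212, 5811, 6673, 10017 and 6792 in restricted animals and 2291, 1100, 795, 2849 and 2396 in young ones. Every restricted animal was above every young one, and 2 young animals lay under the floor. Hpd rose by 1.99 ± 0.29 (adjusted p = 0.00073), while old controls stood at 0.55 (adjusted p = 0.40). Gldc, the glycine-splitting subunit of the glycine cleavage system, rose by 1.44 ± 0.31 (adjusted p = 0.014). Prodh2, which degrades hydroxyproline, rose by 0.82 ± 0.16 (adjusted p = 0.0063).

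Odc1, the rate-limiting enzyme of polyamine synthesis and an androgen-driven gene in mouse kidney, showed the largest fall of floored values among named genes. Falls of genes partly or wholly under the floor in restricted animals, such as Cyp7b1, Dbp and C1qtnf3, are bounds and cannot be ranked against it. It read 1974, 1996, 1578, 1648 and 1406 in restricted animals, 2594, 3184, 3016, 2562 and 2161 in old controls and 4916, 5918, 6155, 4802 and 5910 in young ones. The 3 groups did not overlap, and the restricted group was the lowest. Odc1 fell by 1.69 ± 0.14 on the log2 scale from young to restricted (adjusted p = 9.7e-06). Old controls stood at -1.04 from young (adjusted p = 0.00029), and restricted animals at -0.66 from old controls (adjusted p = 0.020). Of 10 measured androgen-regulated kidney genes, 2 fell and none rose (median -0.35). The other faller was Hsd17b11, a steroid and lipid dehydrogenase, at -0.90 ± 0.18 (adjusted p = 0.0095), with old controls at -1.01. Kap, the most abundant androgen-driven kidney gene, differed by -0.20 ± 0.35 (adjusted p = 0.82). Gatm, the first enzyme of creatine synthesis, read 1724, 2009, 1919, 1856 and 3034 in restricted animals and 4223, 4435, 4750, 4095 and 3409 in young ones. Only restricted animal 5 came near the young range, and Gatm fell by 1.01 ± 0.16 on the log2 scale (adjusted p = 0.0020). Cndp2, a cytosolic dipeptidase, differed by -0.91 ± 0.13 (adjusted p = 0.00065), against -0.16 in old controls.

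**Figure D2:**
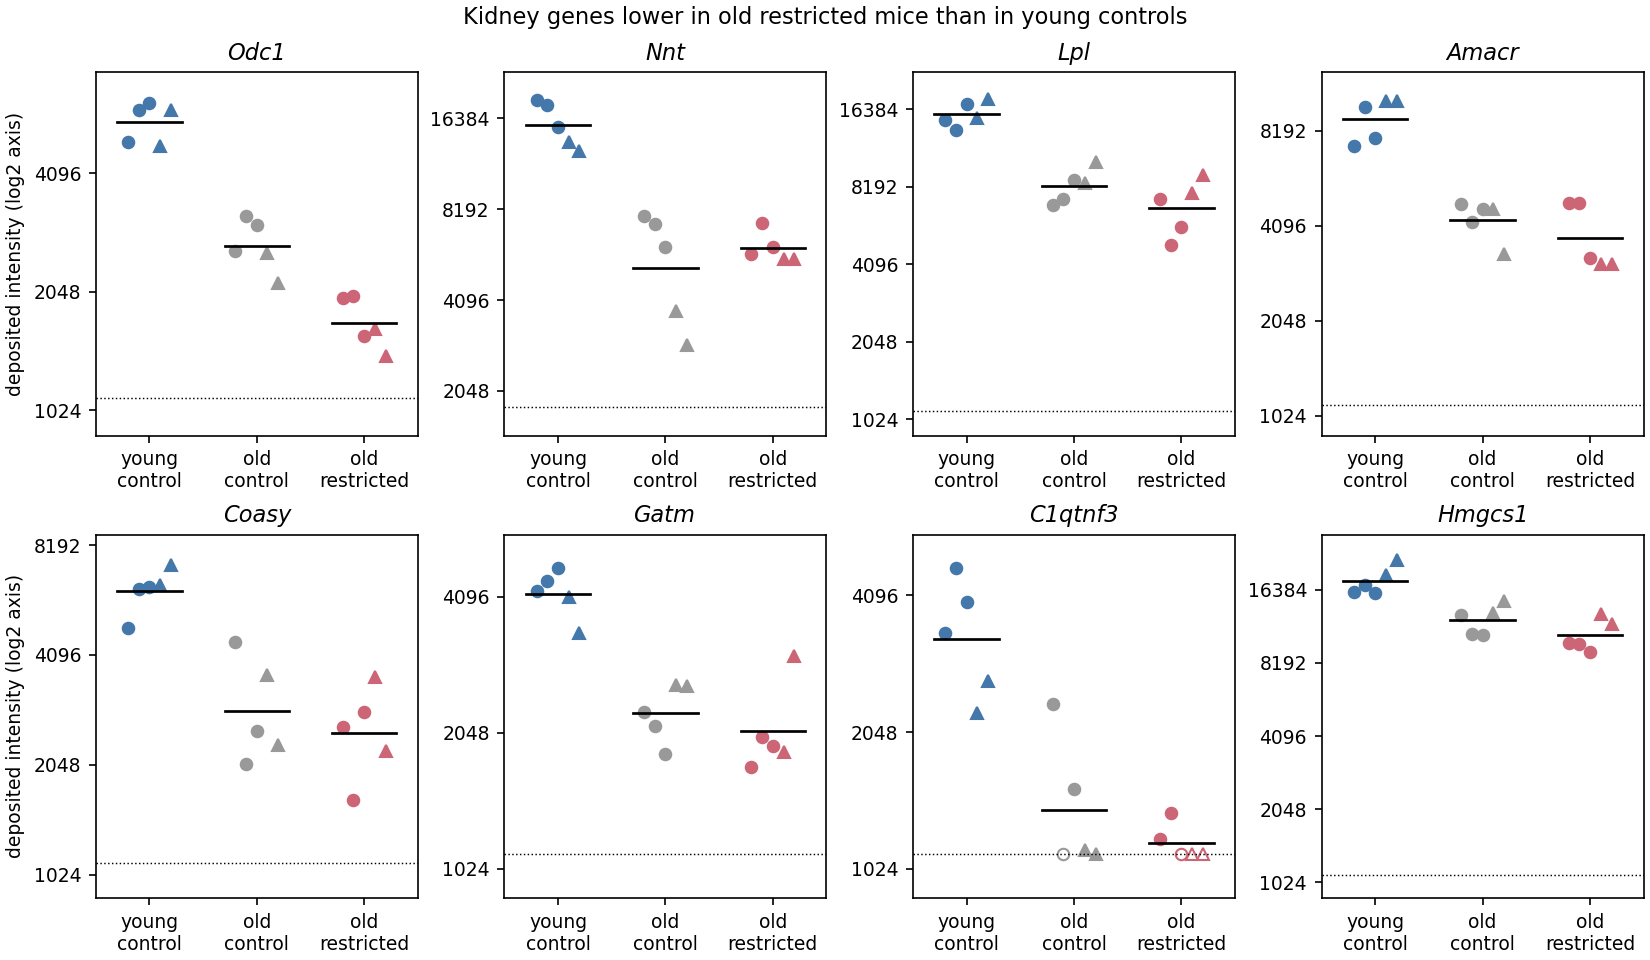
Deposited intensity by animal (y axis, log2 scale) for 8 genes that fell, in young controls, old controls and old restricted mice (x axis), with symbols as in the plot of genes that rose. For Odc1 the 3 groups do not overlap, while for Nnt, Lpl, Amacr, Coasy and Gatm the old groups overlap each other and lie under all young animals. The closest approach among these for restricted animals is Gatm, 3034 against a lowest young value of 3409.

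Of 35 measured genes of glutathione and redox defence, 4 were higher in restricted kidneys, 1 was lower and 30 did not pass, with a median of -0.011. Gsta4, the glutathione transferase that clears the lipid peroxidation product 4-hydroxynonenal, read 2459, 2892, 4356, 3929 and 4871 in restricted animals. Young animals read 785, 734, 769, 528 and 510, all under the floor, so Gsta4 was at least 3.25-fold higher in restricted kidneys (adjusted p = 7.6e-05). Old controls read 1008, 410, 1005, 1495 and 1616, with 2 of 5 above the floor, and restricted animals stood 1.5 above them (adjusted p = 0.00019). Hmox1, which breaks down haem, read 3180, 1024, 5884, 5695 and 4169 in restricted animals, and all young animals were under the floor. It was at least 3.13-fold higher (adjusted p = 0.011), and restricted animal 2 alone lay with the young ones.

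Aldh1a1, which oxidises retinal and other aldehydes, read 3867, 3583, 5157, 4218 and 4927 in restricted animals and 1063, 1210, 931, 1582 and 1394 in young ones. Old controls, at 1960, 2808, 2589, 3399 and 2718, lay between them, and the 3 groups did not overlap. Aldh1a1 rose by 1.77 ± 0.16 (adjusted p = 2.0e-05), with old controls at 1.07. Gsta3, a further glutathione transferase, rose by 0.96 ± 0.18 (adjusted p = 0.0044). Nnt, the inner-membrane transhydrogenase that makes NADPH in mitochondria, was the gene of this list that fell. It read 5811, 7395, 6145, 5624 and 5599 in restricted animals, 7773, 7338, 6157, 3757 and 2915 in old controls and 18846, 18101, 15330, 13695 and 12761 in young ones. Both old groups overlapped and lay well under the young group. Nnt fell by 1.36 ± 0.24 on the log2 scale (adjusted p = 0.0033), and the restricted and old control groups differed by 0.22 (adjusted p = 0.71). One C57BL/6 substrain is known to carry a deletion in Nnt, the labels do not give the substrain, and substrain and age cannot be told apart. Selenop, which carries selenium in plasma, differed by -0.98 ± 0.17 (adjusted p = 0.0034), and Msrb1, a selenoprotein that repairs oxidised methionine, by -0.86 ± 0.14 (adjusted p = 0.0023).

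Respiratory chain genes showed mostly small differences, most of them below 0. Of 48 measured oxidative phosphorylation genes, 1 fell and 47 did not pass. The median was -0.24, against 0.010 over all named genes, and 40 of the 48 were below 0. A dimmer probe set of Cox7a2l, which takes part in respiratory supercomplexes, was higher at 0.56 ± 0.14 (adjusted p = 0.038), a call that 14 of 26 alternatives lost, while its brighter one, used for the list, read 0.23 and did not pass. The gene that fell was Cycs, cytochrome c, whose probe sets gave -1.12 ± 0.26 and -0.91 ± 0.21 (adjusted p = 0.022 and 0.020). Both calls were lost without young animal 2 or 3 (adjusted p up to 0.072), and each also without 1 or 2 other animals. The differences were -0.54 for Uqcrc1, a core subunit of complex III, and 0.08 for Cox4i1, a subunit of complex IV. Old controls had a median of -0.42 for the same list. At an unadjusted p under 0.05 in limma, 11 of the 48 oxidative phosphorylation genes were lower and none higher. Over all 4433 tested probe sets, 748 were under that value in either direction. Of 38 cytosolic ribosomal protein genes none passed the adjusted threshold in limma, while 10 were higher and none lower at an unadjusted p under 0.05. Their median was 0.28, with 33 of the 38 above 0.

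Of 14 measured genes of the proximal tubule, 2 fell and 12 did not pass, with a median of -0.18. Both genes that fell encode subunits of meprin, a brush-border protease. Mep1b fell by 1.06 ± 0.25 (adjusted p = 0.022) and Mep1a by 0.80 ± 0.18 (adjusted p = 0.018) on the log2 scale. The Mep1b call was lost when any of 5 animals was left out (adjusted p up to 0.063). Fbp1, a gluconeogenic enzyme of this segment, differed by -0.64 ± 0.14 (adjusted p = 0.017). The transporters of this list did not pass, among them Slc34a1 at -0.07, Slc22a6 at -0.34 and Slc2a2 at -0.16. Outside the list, Slc22a30, of the organic anion transporter family, differed by -1.62 ± 0.30 (adjusted p = 0.0049) and Slc51a, a bile acid exporter subunit, by -1.21 ± 0.26 (adjusted p = 0.014).

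Kl encodes klotho, the co-receptor through which FGF23 lowers phosphate and vitamin D activation. It read 1420, 1709, 1780, 731 and 1227 in restricted animals, 1501, 1544, 972, 1413 and 1067 in old controls and 2969, 2472, 2662, 2585 and 2146 in young ones. Both old groups lay under all young values and overlapped each other. Kl fell by 0.84 ± 0.16 on the log2 scale (adjusted p = 0.0059), and old controls stood at -0.95. A brighter Kl probe set read -0.71 ± 0.19 and did not pass (adjusted p = 0.053). In the list of loop, distal tubule and collecting duct genes, 1 of 15 rose and none fell, with a median of -0.0096. The riser was Prom1 (CD133), a membrane protein of epithelial cell protrusions, at 1.35 ± 0.18 (adjusted p = 0.00052) and 0.92 in old controls. Calb1, a distal calcium-binding protein, differed by -0.28 and Egf by 0.05, neither past the threshold.

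Of 20 measured genes of tubular injury, 4 rose, none fell and 16 did not pass, with a median of 0.46. S100a6, a calcium-binding protein of regenerating epithelium, read 5432, 6983, 5371, 8944 and 7893 in restricted animals and 1585, 2931, 2222, 4198 and 4296 in young ones. The groups did not overlap, and S100a6 rose by 1.25 ± 0.27 (adjusted p = 0.013), with old controls at 1.36. Cd24a rose by 0.78 ± 0.16, Wfdc2 by 0.76 ± 0.16 and Tagln2 by 0.59 ± 0.14 (adjusted p = 0.0086, 0.014 and 0.022), and the Tagln2 call was lost when any of 5 animals was left out (adjusted p up to 0.062). The injury markers Lcn2, Vim and Krt8 read 0.12, 0.04 and -0.12 and did not pass. Lcn2 was above the floor in 4 restricted and 0 young animals, so its value is a lower bound. Krt20, Anxa2, Hspb1 and Clu read 0.85, 0.65, 0.59 and 0.53, also without passing. Of the 20 genes 17 were above 0 and 3 below. At an unadjusted p under 0.05 in limma 10 were higher and none lower, beside 748 of all 4433 tested probe sets in either direction. Ckb, the brain-type creatine kinase, rose by 1.25 ± 0.21 (adjusted p = 0.0026), with old controls at 1.05. Another Ckb probe set on the second array type rose by 0.78 and a dimmer one there read 0.11 (adjusted p = 0.93).

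**Figure D3:**
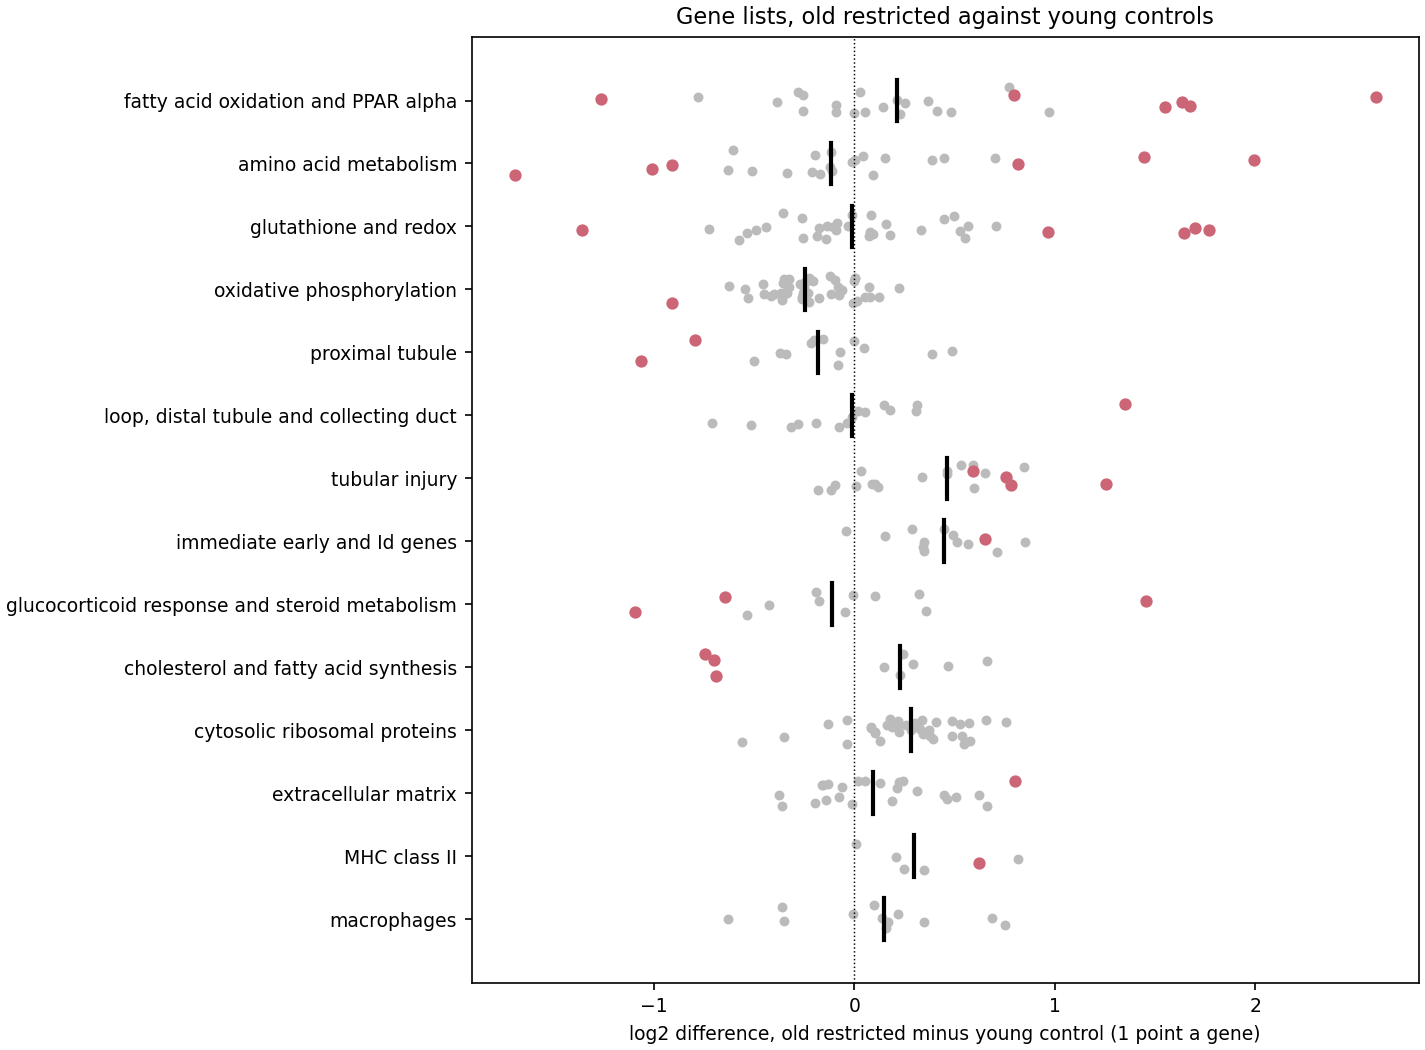
Log2 difference of old restricted minus young control animals (x axis) for each measured gene of 14 lists (y axis), 1 point a gene. Coloured points passed the adjusted threshold, grey points did not, and black bars are list medians, which run from -0.24 for oxidative phosphorylation to 0.46 for tubular injury.

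Steroid and glucocorticoid genes went in both directions. Of 12 measured, 1 rose, 2 fell and 9 did not pass, with a median of -0.11. Sgk1, a kinase that keeps sodium channels at the membrane and is a known glucocorticoid and aldosterone target, read 4780, 2753, 7111, 4049 and 3472 in restricted animals and 1836, 2100, 1488, 919 and 1338 in young ones. No restricted animal fell in the young range, and Sgk1 rose by 1.46 ± 0.30 (adjusted p = 0.0095). Hsd11b1, which regenerates active glucocorticoid, fell by 1.09 ± 0.26 on the log2 scale (adjusted p = 0.022), beside old controls at -1.07, a call lost without restricted animal 3 or 4 or young animal 2 or 3 (adjusted p up to 0.075). Hsd3b2, a steroid dehydrogenase, was under the floor in all old animals and at least 1.56-fold lower than in young ones (adjusted p = 0.0044). Other glucocorticoid targets read -0.43 for Fkbp5 and 0.36 for Per1, neither past the threshold.

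Sgk1 has 6 start windows of 300 bases in the RefSeq table of build GRCm38.p6, each from 250 bases before to 50 after a start. The palindromic glucocorticoid response element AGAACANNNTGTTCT (the arm AGAACA, 3 free bases and its reverse complement), searched on both strands, was found in 1 of the 6. Of all 32851 windows 0.00913% held it, which is 3 windows, and the motif was searched for after the values were seen. The sequence is shown because Sgk1 was the list's gene that rose. It gives the 250 bases before that start, chr10:21993640-21993889 on the plus strand, with the motif in capitals at position 62. Among the 10 list members with a window, Sgk1 was the 1 with a match.
Sgk1: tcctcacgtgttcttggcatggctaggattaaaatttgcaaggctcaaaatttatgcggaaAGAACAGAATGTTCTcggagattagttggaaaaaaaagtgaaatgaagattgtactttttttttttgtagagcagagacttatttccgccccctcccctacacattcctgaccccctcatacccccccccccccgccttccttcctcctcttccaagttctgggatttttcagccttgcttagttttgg

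Among 9 measured genes of cholesterol and fatty acid synthesis, 3 fell, none rose and 6 did not pass, with a median of 0.23. Hmgcs1, which makes the hydroxymethylglutaryl-CoA used for cholesterol, read 9883, 9744, 9040, 13027 and 11857 in restricted animals and 15962, 17181, 15788, 18841 and 21618 in young ones. The groups did not overlap, and Hmgcs1 fell by 0.74 ± 0.14 on the log2 scale (adjusted p = 0.0077). Idi1, a later enzyme of the same pathway, was under the floor in all restricted animals and at least 1.61-fold lower (adjusted p = 0.0026). The malic enzyme Me1, which supplies NADPH for lipid synthesis, differed by -0.70 ± 0.18 (adjusted p = 0.036), a call lost in 10 of 26 alternatives, among them leaving out any of 7 animals (adjusted p up to 0.10). Old controls stood at -0.52 from young for Hmgcs1, -0.66 for Idi1 and -0.32 for Me1. Fasn, Scd1, Fdft1 and Lss read 0.24, 0.66, 0.23 and 0.15 and did not pass. The sterol regulatory element TCACCCCAC, searched on both strands after the values were seen, was found in 1 of the 7 list members with a window, Hmgcs1, and in 0.551% of all windows. It is shown because Hmgcs1 had the largest fall of floored values in the list, where the fall of Idi1 is a bound. The sequence gives the 250 bases before its start, chr13:119690101-119690350 on the plus strand, with the motif in capitals at position 114. A match of letters is a description and not a site or a cause.
Hmgcs1: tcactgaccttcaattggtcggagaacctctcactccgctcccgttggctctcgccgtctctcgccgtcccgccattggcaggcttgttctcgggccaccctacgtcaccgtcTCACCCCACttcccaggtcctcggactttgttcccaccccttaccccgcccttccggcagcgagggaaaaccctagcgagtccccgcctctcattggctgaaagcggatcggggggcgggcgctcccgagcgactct

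In several genes the restricted kidney stood apart from both control groups while old and young controls lay close. Cyp2d26, a cytochrome P450 of drug and steroid oxidation, read 8331, 10770, 15388, 20930 and 21830 in restricted animals, 4858, 5760, 4894, 8735 and 5475 in old controls and 6732, 5217, 5023, 6484 and 6747 in young ones. Restricted animals were above all young ones, and only restricted animal 1 lay within the old control range. The differences were 1.27 ± 0.25 from young (adjusted p = 0.0074) and 1.31 from old controls (adjusted p = 0.0076), while old and young controls differed by -0.04. Gjb6, the gap junction protein connexin 30, read 950, 1284, 974, 2026 and 1230 in restricted animals and 2661, 3014, 2403, 4040 and 2780 in young ones. All restricted values were lower, and Gjb6 fell by 1.16 ± 0.22 on the log2 scale from young (adjusted p = 0.0050), with old controls at 0.04. Tmem176a, a membrane protein, fell by 0.69 ± 0.12 (adjusted p = 0.0033), with old controls at 0.11. Col1a1, a fibrillar collagen chain, rose by 1.07 ± 0.24 on 1 probe set (adjusted p = 0.018), but its others read 0.66 and 0.06 and did not pass. On the probe set that passed, Col1a1 did not stand clear of the controls in every animal. Restricted animal 4 read 1660, under animal 4 of the old controls (1845) and of the young controls (1882). The Col1a1 call was lost without restricted animal 1 or young animal 2 or 3 (adjusted p up to 0.053).

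The immune genes Igha, Jchain, Cd74 and Cx3cl1 were higher in restricted than in young kidneys and higher again in old controls. Igha, the heavy chain of IgA antibodies, read 6404, 9838, 9798, 19069 and 2075 in restricted animals, 48428, 33142, 41208, 28501 and 53397 in old controls and 474, 2662, 3799, 1198 and 630 in young ones. Restricted animals lay between the control groups, and animal 5 overlapped with young ones. The difference from young was 2.14 ± 0.48 (adjusted p = 0.017), with old controls at 4.54. Jchain, which joins IgA and IgM into polymers, was under the floor in all young animals and at least 1.75-fold higher in restricted ones (adjusted p = 0.018), with old controls at 2.88; without restricted animal 4 its adjusted p was 0.051. Cd74, the invariant chain of MHC class II, read 8647, 7902, 6855, 11425 and 9117 in restricted animals against 4773, 6735, 6248, 5088 and 5533 in young ones. These ranges nearly touched, and Cd74 rose by 0.62 ± 0.16 (adjusted p = 0.034), with old controls at 1.77. Leaving out any of 8 animals lost the Cd74 call (adjusted p up to 0.088). Cx3cl1, the chemokine fractalkine, rose by 0.74 ± 0.15 (adjusted p = 0.011), with old controls at 1.52. Immunoglobulin and MHC chains have near-identical relatives whose RNA their probe sets may share.

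Several genes with a large age difference did not pass between restricted and young animals, and their intervals show what differences these data allow. Ighm, the IgM heavy chain, read 9332, 5335, 5321, 8685 and 5366 in restricted animals and 4784, 3432, 3118, 1281 and 3041 in young ones. No values overlapped, yet the difference of 1.09 (95% interval 0.34 to 1.84) did not pass (adjusted p = 0.11), and old controls stood at 3.66. Its other probe sets did not pass either (adjusted p = 0.69 and 1.0). The MHC class II chains H2-Ab1, H2-Aa and H2-Eb1 read 0.82 (0.28 to 1.36), 0.28 (-0.10 to 0.67) and 0.25 (-0.25 to 0.74), against 2.04, 1.56 and 1.43 in old controls. Ctss, a protease that trims the invariant chain, read 0.35 (-0.02 to 0.72), and the macrophage lysozyme Lyz2 read 0.75 (0.12 to 1.39), against 1.61 and 1.67. Mgp, an inhibitor of calcification, read 0.62 (0.15 to 1.09), against 1.53. Ighg2c, an IgG heavy chain, read 0.40 (0.0026 to 0.81), against 1.31. A p that misses the threshold does not show that these genes are at the young level, and 5 of these 8 intervals lie above 0.

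**Figure D4:**
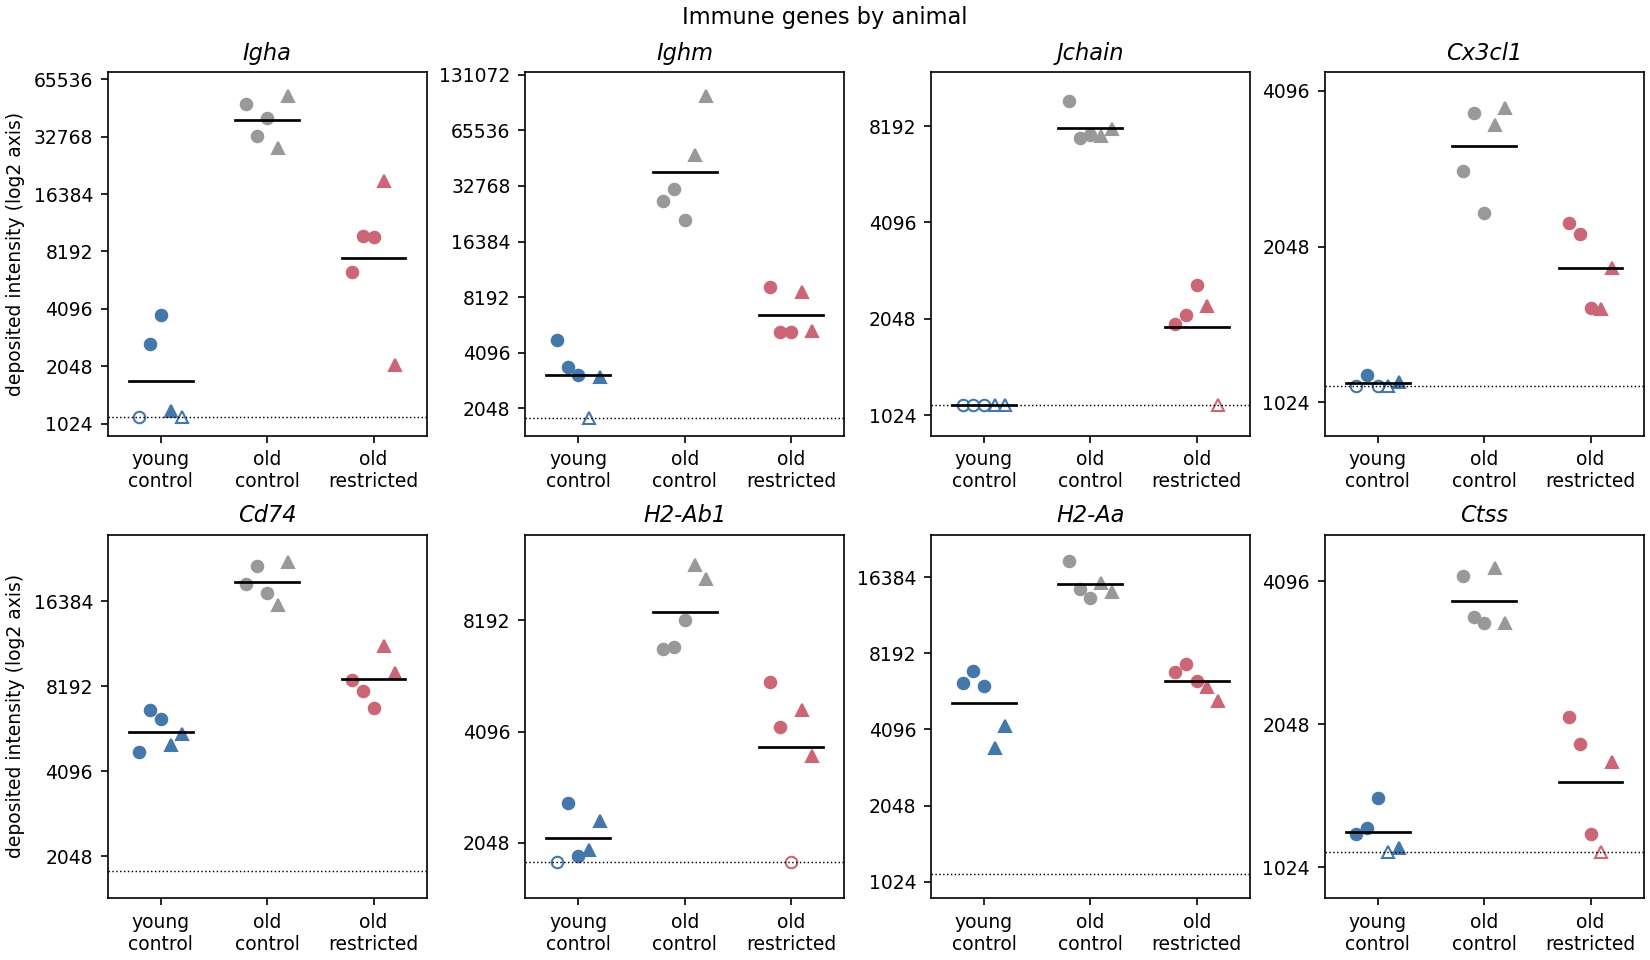
Deposited intensity by animal (y axis, log2 scale) for 8 immune genes in young controls, old controls and old restricted mice (x axis), with symbols as in the plot of genes that rose. The old controls lie highest for each gene, and the restricted animals lie near or somewhat above the young ones, widest apart for Igha at 2075 to 19069 against 474 to 3799.

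Over all 2668 named genes, 54 were higher and 50 lower past the threshold. By list, 2 of 10 measured B and plasma cell genes rose (median 0.14), 1 of 6 MHC class II genes (median 0.30), and 2 of 8 complement and acute phase genes (median 0.32). The last were Cfb, factor B of the alternative complement pathway, at 0.67 ± 0.16, and Cp, the copper carrier ceruloplasmin, at 0.79 ± 0.20. Leaving out any of 4 animals lost the Cfb call and any of 7 the Cp call (adjusted p up to 0.079 and 0.086). None of 12 macrophage genes passed in limma (median 0.15, with 1 higher at an unadjusted p under 0.05), and Cd68 and C1qb read -0.0043 and -0.36. Beside this and the next unadjusted counts, 748 of all 4433 tested probe sets were under 0.05 in either direction. None of 14 MHC class I and interferon genes passed either (median 0.08, with 2 higher and 1 lower unadjusted). Of 24 extracellular matrix genes 1 rose (median 0.09), Thbs1, the matrix protein thrombospondin 1, at 0.80 ± 0.19, lost without restricted animal 5 or young animal 2 or 3 (adjusted p up to 0.067). That count takes 1 probe set per gene, the brightest, and by any probe set 3 genes rose, Thbs1, Col1a1 and Col5a1, a chain of type V collagen. The dimmer Col5a1 probe set rose by 0.67 ± 0.15 (adjusted p = 0.019), a call lost without any of 4 animals (adjusted p up to 0.056), and the brighter one read -0.20 (adjusted p = 0.78). Smooth muscle genes had a median of 0.41 over 5 genes and none passed in limma (3 higher unadjusted), with Acta2, smooth muscle actin, at 0.92 ± 0.25 (adjusted p = 0.053). In 9 of 26 alternatives Acta2 did pass, and over all 26 its difference was 0.78 to 1.03. Among the 9 were the title number as a replicate block and the number set as a term (adjusted p = 0.0020 and 0.0017 in limma).

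Among the remaining lists few genes passed, beside 54 higher and 50 lower of all 2668 named genes. A count of 1 in a list is not read as a result about that list. Of 13 immediate early and Id genes, 12 were above 0 and the median was 0.45, with old controls at a median of 0.03. At an unadjusted p under 0.05 in limma 7 were higher and none lower, beside 748 of all 4433 tested probe sets in either direction. Only Ier3, an early stress response gene, passed the adjusted threshold, at 0.65 ± 0.17 (adjusted p = 0.047). That call was lost in 16 of 26 alternatives, 7 of them the loss of 1 animal (adjusted p up to 0.12). Of 26 lysosome and proton pump genes 2 fell (median -0.14). Glb1, the lysosomal beta-galactosidase, was under the floor in all restricted animals and at least 1.70-fold lower (adjusted p = 0.0045), and the membrane protein Lamp2 differed by -0.74 ± 0.18 (adjusted p = 0.029), a call lost without any of 7 animals (adjusted p up to 0.093). Of 38 chaperone genes 1 fell (median -0.11), Dnaja1, a co-chaperone of Hsp70, at -0.89 ± 0.24 (adjusted p = 0.046). Dbp, a clock output gene, fell from 1491 to 2870 in young animals to under the floor in all restricted ones, at least 1.89-fold (adjusted p = 0.038); 12 alternatives lost the Dnaja1 call and 12 the Dbp call, of which 8 and 9 were the loss of 1 animal (adjusted p up to 0.13 and 0.12). The labels used here do not give the hour of sampling.

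Further genes outside the lists also passed, some of them among the largest changes and others named after their values were seen. C1qtnf3, a secreted relative of adiponectin, read 1191, 1358, 802, 505 and 452 in restricted animals and 3379, 4715, 3959, 2259 and 2649 in young ones. All restricted values were lower, and C1qtnf3 fell by 1.49 ± 0.22 on the log2 scale (adjusted p = 0.0012), with old controls at -1.25. Lypla1, a lysophospholipase that also removes palmitate from proteins, differed by -1.09 ± 0.17 (adjusted p = 0.0015), and Cyp7b1, an oxysterol hydroxylase, was under the floor in all restricted animals and at least 2.10-fold lower (adjusted p = 0.014). Ndrg1, a stress-induced gene, rose by 1.27 ± 0.23 (adjusted p = 0.0044), with 0.84 among animals 1 to 3 and 1.91 among animals 4 and 5. Alpl, the tissue-nonspecific alkaline phosphatase, rose by 1.12 ± 0.25 (adjusted p = 0.016), and Tnfrsf1a, a TNF receptor, by 0.92 ± 0.21 (adjusted p = 0.017), with 1.16 and 0.55 in the number sets. The Alpl call was lost without young animal 2 (adjusted p = 0.0504), and the Tnfrsf1a call without young animal 2 or 3 (adjusted p up to 0.052).

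**Figure D5:**
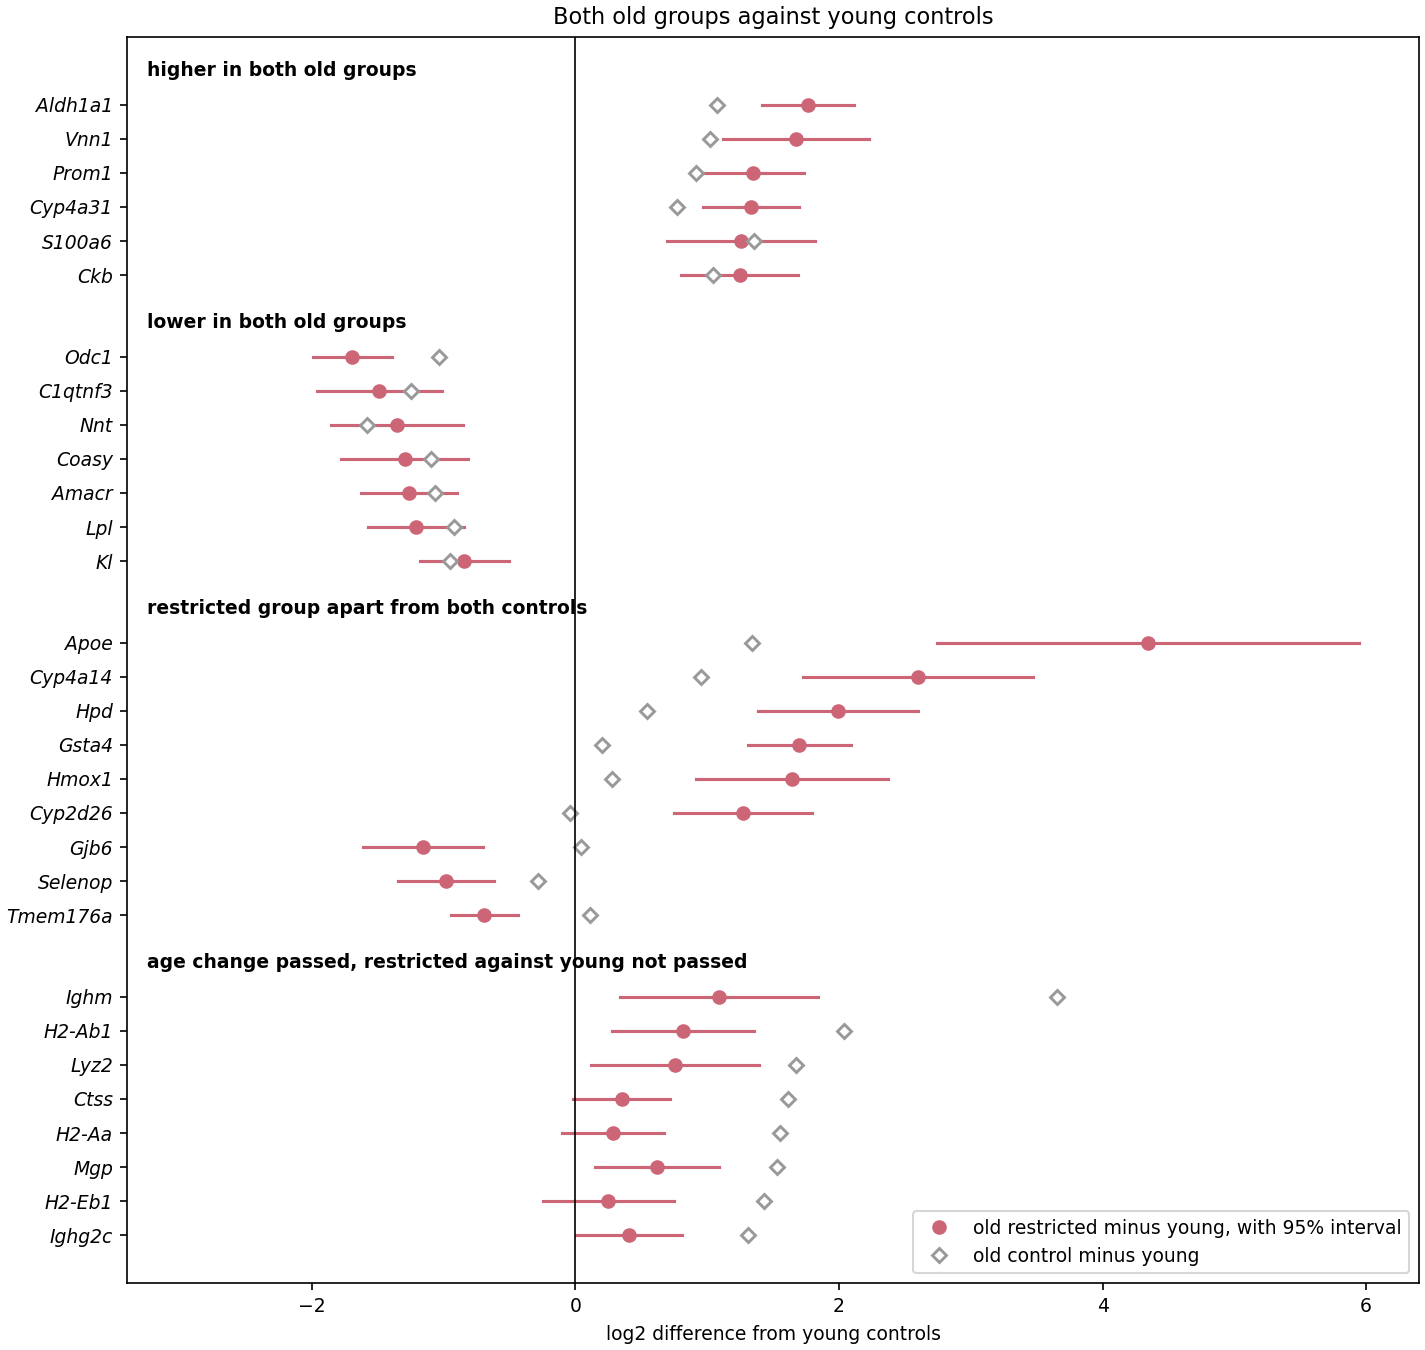
Log2 difference from young controls (x axis) for old restricted mice (filled circles, with 95% intervals) and old controls (open diamonds) in 30 probe sets (y axis). For Nnt, S100a6 and Kl the marks of both old groups lie close, for Apoe, Gsta4 and Cyp2d26 the restricted group lies farther from young, and for Ighm and the MHC class II chains the old controls do.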

How the data were processed

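Sample titles gave each sample's group and number. The deposited values are whole-number intensities per probe set; how the authors made them is not given in the sources used here. Each array was scaled to its table's mean after trimming 2% at each end (factors 0.997 to 1.01), floored at the root mean square of the table's negative values (1103 and 1815) and taken to log2. A probe set was tested when above the floor on at least 5 of the 15 arrays of its table, which left 2609 and 1824.

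Left out were 110 control rows, 22 further rows blank on an array and 255 rows of the second table whose target has several probe sets of the suffixes i, f, s or r, since young values there stand exchanged between rows. Outside that class, exchanging young values between rows up to 5 apart brought them clearly closer to the mean of the old groups in 1 of 31410 pairs of the second table, as it did for 1 pair of old control values.

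All 15 animals were fitted together with limma 3.58.1 in R 4.3.3 (lmFit and eBayes), and p-values were adjusted by Benjamini-Hochberg across all 4433 probe sets, with a threshold of 0.05. In a simulation with the spread of those probe sets, the fit found 69.0% of changes of log2 1, 84.0% of changes of log2 2, and 7.27% of its calls were false. The simulated noise was normal and independent between probe sets and animals. It held neither the component that separated the number sets nor outlying animals, so these rates check the fit and do not describe the real comparison. Array annotation gave 3031 tested probe sets 1 gene symbol, updated by gene number for 3028 with a RefSeq table of GRCm38.p6, and the 1283 without a symbol and 119 with several are not named; 47 of the 169 that passed had no symbol. The number of arrays limits the precision.

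Named are the 15 largest rises and falls, 12 each of changes that also passed in old controls or against old controls, up to 8 opposite to age, 8 age changes that did not pass, up to 4 passing and 4 bright members of each list, and markers. Kl, Cd36, Col5a1, Cox7a2l, Ahsg, Plin2, Ndrg1, Gsta3, Acaa2, Prodh2, Tnfrsf1a, Cx3cl1, Alpl, Msrb1, Cndp2 and list members given as values beside them were named after their values were seen. Members, lists and tests were chosen with earlier results of these data known. For each list the brightest probe set of a gene was used. Alternatives were other scalings, floors, filters, transforms, moderation and fits, a replicate block, the number sets and leaving out each restricted or young animal. No old control was left out on its own. Figures were drawn with matplotlib 3.10.9.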

Additional observations from a re-analysis of the deposited data

Results flagged for a closer look

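Among 214 groups of 5 animals, the 2 groups of each named probe set, 14 (6.54%) held an animal whose gap to the next value took more than 0.71 of the group's range on the log2 scale. The usual chance rate of about 1 in 20 holds for normal values that no floor cuts, so it is not a fair reference for these floored values. Values are intensities, and no explanation was tested.

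In young animals, Prodh2 read lowest in animal 2 at 2674, and animal 4 read highest for Mcm7 (1198), Col1a1 (1882), Tial1 (2660), Inpp5k (1972) and Tubb5 (2931). Young animal 5 was highest for Cd79b at 1450. In restricted animals, animal 4 read lowest for Me1 (2613) and Tubb5 (3030) and highest for Gjb6 (2026) and Ckm (10286). Gatm was highest in animal 5 at 3034, Ttr in animal 2 at 1550 and Cd79b in animal 1 at 1263. Of these genes Ttr, Cd79b and Ckm did not differ past the threshold between restricted and young animals. For Tubb5, a tubulin chain, the difference was 1.03 ± 0.27, and 8 of 10 single animals lost the call when left out. For Mcm7, Col1a1, Inpp5k and Tubb5 most other young values were near or under the floor. For Ttr and Cd79b only 1 restricted animal was above the floor, which fixes the gap share at 1.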

How the results depend on the processing

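Of 26 alternatives, those on all animals or on 1 number set that moved the 169 probe sets (88 higher, 81 lower) by over 1.5 times were no filter on low values (107, with 51 higher), the number set as a term (341, with 172 higher and 169 lower), animals 4 and 5 alone (13, with 9 higher and 4 lower) and the exchanged rows kept in (258, with 133 higher and 125 lower). Leaving out young animal 2 (112) or 3 (110) also moved it by over 1.5 times. Leaving out 1 restricted or young animal in turn gave 110 to 184 in all, 56 to 98 higher and 51 to 86 lower. With the title number as a replicate block the count was 244 (129 higher, 115 lower). Deviations of restricted and young animals of the same number correlated at 0.21, 0.241, 0.0703, 0.409 and 0.372 for numbers 1 to 5, not all above 0.1, so the numbers were not taken as pairs. Their mean was 0.26, and the mean between animals of different numbers was -0.064. Deviations sum to 0 within each group, so the second mean follows largely from the first and is no separate comparison. The main fit leaves this shared structure in the spread, and more probe sets passed when it was fitted. A gene that did not pass in the main fit may therefore pass with it.

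All 82 named probe sets that passed kept their sign in every alternative that tested them, and Gsta4, Odc1 and Prom1 kept their call in all of those. Of the 82, 28 lost the call without 1 animal. Of 775 list medians over all alternatives, 47 moved by 1 SD or more. Values near the floor understate differences, and fits with animals 4 and 5 alone rest on 2 per group.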
